A study of Mus musculus with 32 samples.

Results

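The myelin and oligodendrocyte maturation genes described here are Mbp, Cnp, Mag, Mobp, Tcf7l2, Myrf, Enpp2, Bcas1 and Sirt2. They were chosen by name, and their RNA–chromatin interactions were collected by Ensembl identifier from RADICL-seq, a method in which RNA is joined to nearby DNA inside fixed nuclei by an adapter, and sequencing then reads an RNA tag, which names the transcript, and a DNA tag, which names the place it was near. Of the 9 genes, 8 were listed as the RNA partner of at least 1 significant interaction, among 17784 genes so listed, and Mag was listed in none of the 15 libraries. The 8 RNAs held 26601 of 25231081 interactions. A significant interaction is one whose pair of transcript and 25-kb DNA bin passed the adjusted p threshold of 0.05 in the authors' test of enrichment.

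The libraries came from mouse R08 embryonic stem cells (mESC), kept undifferentiated with LIF and without feeder cells, and from Oli-neu cells (mOPC), an immortalised line derived from oligodendrocyte progenitors and kept proliferating, so that it is 1 line and not primary tissue. Both lines were fixed with 1% formaldehyde, which gave the mESC 1FA and mOPC 1FA groups with 3 libraries each. A further 3 libraries, mESC 2FA, came from stem cells fixed with 2% formaldehyde, and 2, mESC ActD, from stem cells given actinomycin D, a blocker of transcription, at 5 µg/ml for 4 h. The NPM (non-protein-mediated) groups held 2 libraries from each line, also fixed with 1% formaldehyde, in which ligation came only after protein digestion and reversal of the crosslinks. Libraries held between 251802 and 2832717 significant interactions. Since only pairs past the threshold are in the lists, these totals are not sequencing depth, and an RNA listed at 0 may still have been captured.

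Oligodendrocytes wrap axons in myelin, a compacted stack of membrane. Mbp encodes myelin basic protein, which holds the cytoplasmic faces of the membrane together, and Mobp encodes another basic protein of compact myelin. Cnp encodes the cyclic nucleotide phosphodiesterase of the non-compacted cytoplasmic channels, and Mag encodes an adhesion protein that faces the axon. Myrf encodes a membrane-bound transcription factor that switches on myelin genes once released, and Tcf7l2 encodes an effector of Wnt signalling that acts in many tissues and during oligodendrocyte differentiation. Bcas1 marks oligodendrocytes that have just begun to myelinate, Enpp2 encodes the secreted enzyme autotaxin, and Sirt2 encodes a deacetylase found in myelin. Mature myelin transcripts rise strongly as progenitors differentiate, so proliferating progenitors are known to hold less of them than differentiated cells.

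Promoters of 5 members were looked up at 250 bases before to 50 bases after a start annotated by RefSeq (GRCm38.p6). Mbp, Myrf, Enpp2 and Bcas1 are named only. The promoters of 3 genes are printed because their genes behaved differently as RNAs: Cnp rose in mOPC, Mobp was listed in mESC and not in mOPC, and Tcf7l2 was captured in every library. Capitals mark matches, on either strand, to ACAAAG, the core bound by Tcf7l2 and its relatives, or to ACAATG, a core bound by Sox factors. The windows are chr11:100574689-100574988 for Cnp, chr9:120149492-120149791 for Mobp and chr19:55741560-55741859 for the upstream start of Tcf7l2, each on the plus strand.
Cnp: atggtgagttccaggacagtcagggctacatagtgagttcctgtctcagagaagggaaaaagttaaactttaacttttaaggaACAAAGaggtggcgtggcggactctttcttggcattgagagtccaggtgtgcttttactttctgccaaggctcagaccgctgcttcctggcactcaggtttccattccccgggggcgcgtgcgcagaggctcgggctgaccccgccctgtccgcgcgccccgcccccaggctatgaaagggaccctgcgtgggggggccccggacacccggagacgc
Mobp: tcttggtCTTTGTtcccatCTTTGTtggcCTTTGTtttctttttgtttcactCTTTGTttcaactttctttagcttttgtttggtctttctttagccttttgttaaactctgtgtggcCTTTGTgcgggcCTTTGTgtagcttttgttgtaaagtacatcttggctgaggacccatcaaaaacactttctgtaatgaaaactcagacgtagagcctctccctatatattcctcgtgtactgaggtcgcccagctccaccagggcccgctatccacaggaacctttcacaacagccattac
Tcf7l2: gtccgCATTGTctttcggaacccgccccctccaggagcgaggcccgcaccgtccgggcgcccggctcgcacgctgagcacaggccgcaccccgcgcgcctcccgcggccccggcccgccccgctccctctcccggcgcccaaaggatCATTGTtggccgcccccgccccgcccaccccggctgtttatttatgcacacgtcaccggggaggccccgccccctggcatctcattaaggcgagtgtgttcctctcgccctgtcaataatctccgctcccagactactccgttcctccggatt
The Mobp window held 6 matches to ACAAAG, the Cnp window held 1, and the Tcf7l2 window held 2 to ACAATG and none to ACAAAG. Of 32851 promoters of this length, 18.7% held ACAAAG and 12.6% held ACAATG. Neither motif overlaps the other in these windows, and CAGCTG, an E-box, was found in none of the 3 windows while 16.3% of all promoters held it. GC content was 59.7% for Cnp, 43.3% for Mobp and 70.0% for Tcf7l2, against a median of 52.7% over all promoters. DNA tags in the windows were few. In mESC 1FA the Cnp, Mobp and Tcf7l2 windows held 6, 6 and 3 tags, in mOPC 1FA they held 8, 3 and 9, and in both NPM groups they held 0.

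In mm10, which is also GRCm38, Bcas1 lies at chr2:170346991-170427845 on the minus strand, Cnp at chr11:100574904-100591729 on the plus strand, Mobp at chr9:120149707-120181484 on the plus strand and Tcf7l2 at chr19:55741820-55933654 on the plus strand. Myrf lies at chr19:10208272-10240748 on the minus strand, Enpp2 at chr15:54838901-54952892 on the minus strand, Sirt2 at chr7:28766735-28788661 on the plus strand, Mag at chr7:30899176-30914873 on the minus strand and Mbp at chr18:82475146-82585637 on the plus strand. Several share sequence with another annotated gene. Cnp overlaps Dnajc7 on the opposite strand by 8912 bases, Bcas1 overlaps the antisense genes Bcas1os1 and Bcas1os2, and Sirt2, Enpp2 and Mbp overlap Nfkbib, Gm26684 and Rpl21-ps8 on the opposite strand. The RNA tags keep their strand, so these pairs can be told apart on the RNA side but not on the DNA side. Mobp and Tcf7l2 overlap the same-strand genes Gm38642 and Ppnr, for which an RNA tag in the shared stretch cannot be told apart by strand.

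The labels of the lines were checked with marker RNAs. The 8 oligodendrocyte lineage markers (Sox10, Olig1, Olig2, Pdgfra, Cspg4, Ptprz1, Nkx2-2, Gpr17) summed to between 2064 and 2468 CPM, the interactions per 1000000 listed in a library, in mOPC 1FA and to between 6.75 and 33.2 CPM in mESC 1FA, with only Nkx2-2 listed at 0 in mOPC 1FA. Ptprz1 and Cspg4 made up most of that sum, with 3387, 2849 and 2881 and with 1230, 1181 and 1493 interactions in mOPC 1FA. Pdgfra, the growth factor receptor that marks progenitors, lay the other way, with 3, 8 and 4 interactions in mOPC 1FA and 8, 56 and 69 in mESC 1FA, and did not pass the filter for the test. The 10 embryonic stem cell markers summed to between 2312 and 2854 in mESC 1FA and to between 1.81 and 3.00 in mOPC 1FA, where Pou5f1, Nanog and Esrrb were listed at 0. Markers of other cell types were lower in sum than these, and Gfap, Aqp4, Tubb3 and Nefl were listed at 0 in both 1FA groups. Astrocyte markers (3 of 6 listed in each line) summed to 108 to 161 in mESC 1FA and 61.2 to 80.5 in mOPC 1FA. Neuron markers (3 of 5 and 1 of 5 listed) summed to 26.6 to 54.9 and to 353 to 399, all of the latter from Syt1. Microglia markers (2 of 5 in each line) summed to 37.8 to 43.8 and 16.1 to 20.8.

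The first question was how the lines differ in the chromatin capture of these RNAs under 1% formaldehyde. Bcas1 dominated the mOPC profile, Mbp, Cnp and Sirt2 were also higher in mOPC, Myrf was lower, Enpp2 was listed only in mOPC and Mobp only in mESC, and Tcf7l2 was not called by the test. Of the 8 members tested, 5 were called higher and 2 lower, of which Enpp2 and Mobp set one line against a line listed at 0. Genes listed at 0 in a group, or below the filter of 10 interactions in each of its libraries as Bcas1 was in mESC 1FA, passed the filter only through the group where they are high and so had to differ. Between the lines their values are given as a description, with no p-value, and such calls support nothing in any comparison. Over all 10256 transcripts tested, 77.5% were called, 34.4% higher and 43.0% lower, so calls in themselves were common and the members' 7 of 8 stands near that background. The median log2 fold change of the members was 1.68, against −0.22 over all transcripts tested, and the members listed at 0 in a group do not set it. In these bulk libraries, more cells carrying an RNA and more RNA per cell cannot be told apart.

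Among the structural myelin genes, Mbp RNA held 15, 16 and 16 interactions in the mESC 1FA libraries and 184, 148 and 188 in the mOPC 1FA libraries. The groups lay far apart, and the log2 fold change was 4.25 (SE 0.16, limma adjusted p = 7.5e-08). Cnp RNA held 12, 20 and 7 interactions in mESC 1FA and 16, 21 and 41 in mOPC 1FA. The raw numbers of the groups overlapped, the scaled levels did not, and the log2 fold change was 1.80 (SE 0.49, limma adjusted p = 0.0106). Scaled groups lay apart for 8218 of the 10256 transcripts tested. Without mESC 1FA replicate 3 the Cnp value was 1.38 with an adjusted p of 0.0502. Mobp RNA was listed with 29, 32 and 26 interactions in mESC 1FA and at 0 in each mOPC 1FA library. Mag was listed at 0 in all libraries of both lines.

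Of the genes of early maturation, Bcas1 RNA held 1, 5 and 2 interactions in mESC 1FA and 4473, 4271 and 3669 in mOPC 1FA. Among the members listed in both lines this was the largest difference, with a log2 fold change of 11.31, a value that rests on 1 to 5 interactions per mESC library and was 10.53 with a larger prior count. Bcas1 made up between 81.6% and 84.3% of the member interactions in mOPC 1FA. Enpp2 RNA held 24, 10 and 19 interactions in mOPC 1FA and was listed at 0 in every mESC library. Sirt2 RNA held 17, 23 and 23 interactions in mESC 1FA and 38, 30 and 38 in mOPC 1FA, a log2 fold change of 1.57 (SE 0.23, limma adjusted p = 0.00032).

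The transcription factor genes were captured well in both lines. Tcf7l2 RNA held 845, 790 and 862 interactions in mESC 1FA and 476, 523 and 446 in mOPC 1FA. After scaling between libraries its groups overlapped, with a log2 fold change of 0.05 (SE 0.10, limma adjusted p = 0.643), whereas scaling by the library total gave −0.46 with an adjusted p of 0.0012. Myrf RNA held 247, 212 and 218 interactions in mESC 1FA and 97, 82 and 95 in mOPC 1FA, with a log2 fold change of −0.46 (SE 0.12, limma adjusted p = 0.00726), and an adjusted p of 0.111 when all 15 libraries were fitted together. Scaling by total moved the median over all transcripts by −0.51 and the share of calls that were higher from 44.4% to 31.7%.

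**Figure D1:**
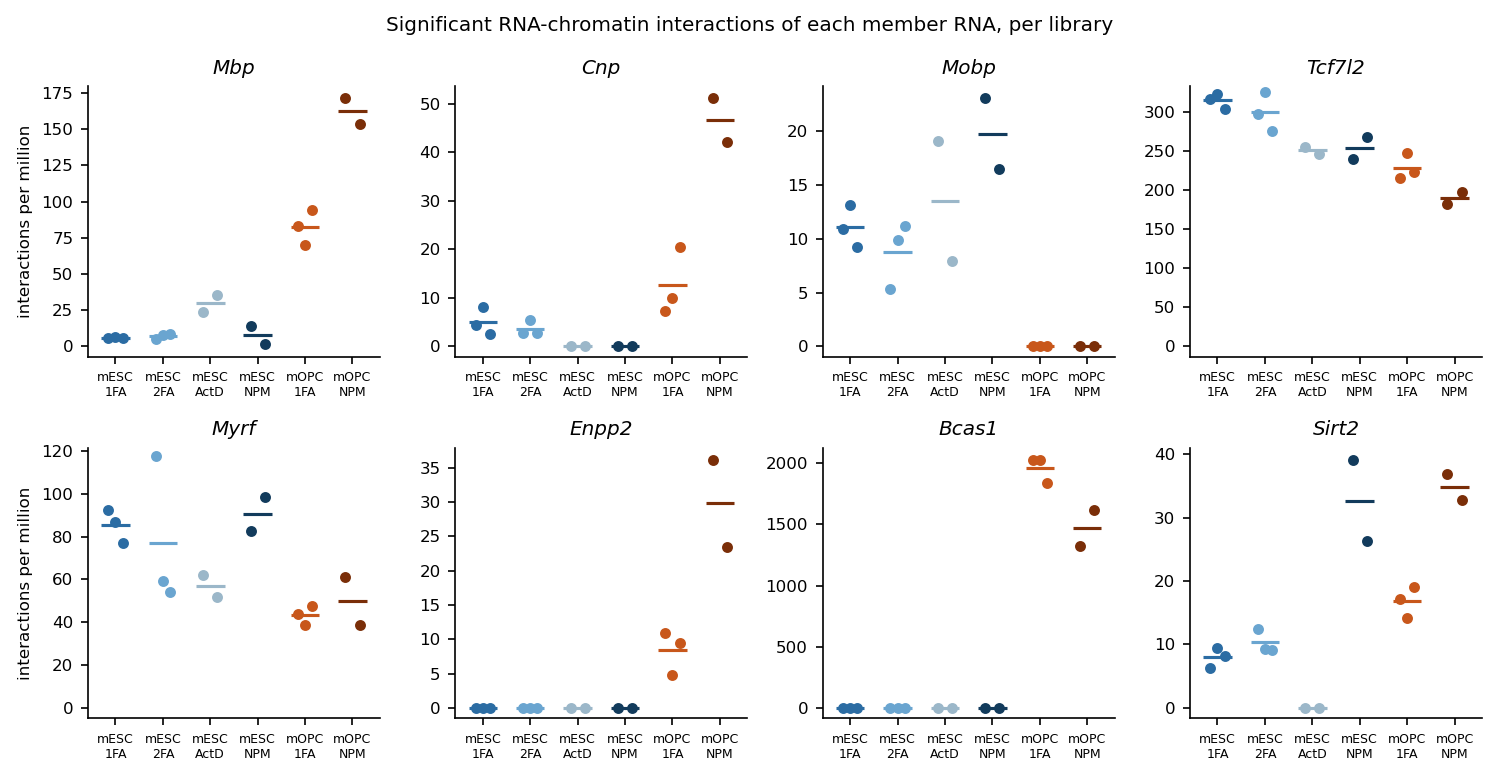
Level in CPM (y axis, linear, own scale in each panel) of the 8 listed member RNAs, by group (x axis). Points are libraries and horizontal lines are group means. Bcas1 sits between 1836 and 2026 in mOPC 1FA and at 0.37 to 2.05 in mESC 1FA, Mobp is listed in mESC groups and at 0 in mOPC, and Tcf7l2 is high in every group.

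Per kb of annotated gene, which puts levels of different genes on one scale, Bcas1 led mOPC 1FA with 24.3 ± 1.35 CPM per kb (SD, n = 3). Myrf (1.34 ± 0.13) and Tcf7l2 (1.19 ± 0.089) followed with overlapping ranges, then Sirt2 (0.77), Cnp (0.75) and Mbp (0.75), whose ranges overlapped too, and Enpp2 (0.073). In mESC 1FA the order began with Myrf (2.63 ± 0.24) and Tcf7l2 (1.64 ± 0.051), which did not overlap. Sirt2 (0.36), Mobp (0.35) and Cnp (0.30) overlapped one another, and Mbp (0.054) and Bcas1 (0.013) came last. The order in mOPC depends on the length used, since the RNA tags of Mbp, Bcas1 and Enpp2 there lay almost wholly after an internal annotated start. Over the stretch after that start, of 31.1 kb in Mbp, 59.5 kb in Bcas1 and 81.1 kb in Enpp2, mOPC 1FA levels were 32.9 ± 1.83 CPM per kb for Bcas1, 2.58 ± 0.41 for Mbp and 0.103 ± 0.04 for Enpp2 (SD, n = 3), which put Mbp above Myrf and Tcf7l2. In mOPC NPM, by annotated length, the order was Bcas1 (18.2), Cnp (2.77), Sirt2 (1.59), Myrf (1.54), Mbp (1.47), Tcf7l2 (0.99) and Enpp2 (0.26), where Mbp had 4.74 over the shorter stretch, and in mESC NPM it was Myrf (2.79), Sirt2 (1.49), Tcf7l2 (1.32), Mobp (0.62) and Mbp (0.070). The ranges of Sirt2, Myrf and Mbp overlapped in mOPC NPM, and those of Sirt2 and Tcf7l2 in mESC NPM.

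The mESC 2FA and ActD libraries were not compared by a test here, and their levels are a description. With 2% formaldehyde Tcf7l2 held 668, 664 and 695 interactions, Myrf 264, 121 and 136, Sirt2 28, 19 and 23, Mobp 12, 20 and 28, Mbp 11, 16 and 21, and Cnp 6, 11 and 7. In CPM, Tcf7l2 then lay at 300.1 ± 25 (SD, n = 3) against 315 ± 9.76 in mESC 1FA, and Myrf varied most, from 54.1 to 118. After actinomycin D, Cnp, Sirt2 and Bcas1 were listed at 0 in both libraries. Tcf7l2 was listed with 107 and 62 interactions, Myrf with 26 and 13, Mbp with 10 and 9 and Mobp with 8 and 2, in libraries of 418781 and 251802 interactions.

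Between the lines without proteins, the same question was put to the NPM libraries. Mbp held 6 and 1 interactions in mESC NPM and 218 and 183 in mOPC NPM, a log2 fold change of 5.19. Cnp was listed at 0 in both mESC NPM libraries and with 65 and 50 interactions in mOPC NPM, Bcas1 at 0 and with 1688 and 1922, and Enpp2 at 0 and with 46 and 28. Mobp held 10 and 10 in mESC NPM and 0 in mOPC NPM. Tcf7l2, Myrf and Sirt2 were not called, with log2 fold changes of −0.03, −0.51 and 0.49 and adjusted p of 0.876, 0.185 and 0.235. The 8 members tested thus held 4 calls higher and 1 lower, but 4 of these 5 set a line against one listed at 0, and Mbp, the other call, lay below the filter in both mESC NPM libraries, so that none of them is support for a difference. Over all 11043 transcripts 51.2% were called, 30.3% higher and 20.9% lower. Without mOPC NPM replicate 1 the calls were 2916 of 11215, and without replicate 2 they were 3123 of 11500. Of all calls 59.2% were higher, and 45.3% when libraries were scaled by total.

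Comparing NPM with 1FA within a line asks how the capture of each RNA changed, relative to the other RNAs, once proteins were removed. The fold changes are on the TMM scale, which sets the bulk of the transcripts level between libraries, and are not changes in the share of listed interactions. In mESC, Sirt2 rose, with 17, 23 and 23 interactions in 1FA and 17 and 16 in the much smaller NPM libraries (log2 fold change 1.47, SE 0.33, limma adjusted p = 0.0046). Tcf7l2 fell from 845, 790 and 862 to 104 and 163 (−0.84, SE 0.14, adjusted p = 0.00076), and Cnp went from 12, 20 and 7 to being listed at 0 in both NPM libraries. Mbp (−0.74, adjusted p = 0.365), Mobp (0.29, adjusted p = 0.477) and Myrf (−0.44, adjusted p = 0.0566) were not called. Of the 6 members tested 1 was called higher and 2 lower, among them Cnp against a group at 0, where 49.5% of 10096 transcripts were called, 21.8% higher and 27.7% lower. The Mbp value turned with the library left out, to −2.17 without mESC NPM replicate 1 and 0.59 without replicate 2, each resting on 1 NPM library, and Myrf was called without replicate 2 (−0.65, adjusted p = 0.0215).

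In mOPC, Bcas1 fell from 4473, 4271 and 3669 interactions to 1688 and 1922 (log2 fold change −1.22, SE 0.17, limma adjusted p = 0.00086), Tcf7l2 from 476, 523 and 446 to 232 and 235 (−1.06, SE 0.13, adjusted p = 0.0005), and Myrf from 97, 82 and 95 to 78 and 46 (−0.62, SE 0.21, adjusted p = 0.0368). Cnp rose from 16, 21 and 41 to 65 and 50 (1.21, SE 0.42, adjusted p = 0.0451). The groups did not overlap on the scaled level for any of these 4 genes, as was so for 7656 of the 10419 transcripts tested. Mbp (0.19, adjusted p = 0.229), Enpp2 (1.07, adjusted p = 0.0615) and Sirt2 (0.26, adjusted p = 0.367) were not called. Of the 7 members tested 1 was called higher and 3 lower, where 55.5% of 10419 transcripts were called, 28.9% higher and 26.6% lower. Without mOPC NPM replicate 1 or 2 the share called was 26.8% or 31.9%.

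Several of these calls depended on 1 library or on the scaling. With 1 of 2 NPM libraries left out, the lone library is assumed to vary like the other group's. The Bcas1 call was lost without mOPC NPM replicate 1 (−1.02, adjusted p = 0.0578), the Cnp call without either mOPC NPM library (1.12 and 1.27, adjusted p = 0.282 and 0.234) or without mOPC 1FA replicate 1 or 2 (0.89 and 1.17, adjusted p = 0.0786 and 0.0737), and the Myrf call without any 1 mOPC 1FA library (adjusted p of 0.0891, 0.0701 and 0.0632) or without mOPC NPM replicate 2 (−0.38, adjusted p = 0.105). Enpp2 was called without mOPC 1FA replicate 1 (1.29, adjusted p = 0.0424). Scaling by total moved the median over all transcripts by 0.52 in mESC and 0.78 in mOPC and the share of calls that were higher from 44.0% to 76.0% and from 52.1% to 89.1%. Under it the fall of Bcas1 in mOPC was −0.42 (adjusted p = 0.0233), a much smaller value than −1.22, and the rise of Cnp was 1.99. The Tcf7l2 values shrank from −0.84 to −0.31 in mESC (adjusted p = 0.0501) and from −1.06 to −0.27 in mOPC (adjusted p = 0.0529) and lost their calls, Myrf turned to 0.0841 in mESC and 0.17 in mOPC, and Mbp (0.98), Enpp2 (1.85) and Sirt2 (1.05) were called higher in mOPC.

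By the interaction term of the fit, the change between 1FA and NPM was called different between the lines for Cnp and Sirt2 among the 8 members tested. The Cnp term rests on mESC NPM libraries listed at 0 and is not a measured size. For Sirt2 the change was lower in mOPC than in mESC (difference of log2 fold changes −1.23, SE 0.34, limma adjusted p = 0.0185). The Sirt2 call was lost under scaling by total (−0.94, adjusted p = 0.0757) and without mESC NPM replicate 1 (−0.99, adjusted p = 0.055). Mbp, Tcf7l2 and Myrf were not called, with adjusted p between 0.123 and 0.635. Mobp, Enpp2 and Bcas1 were not called either, but each was listed at 0 in at least 1 group, so their terms measure no difference. Without mESC NPM replicate 1, which leaves 1 library with 1 Mbp interaction in that group, the Mbp difference was 2.25. Over 12213 transcripts, 33.0% were called, 22.8% higher and 10.3% lower. Of the calls 69.0% were higher, and 79.8% under scaling by total.

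The listed DNA tags of the members lay almost wholly in the RNA's own gene once proteins had been removed. In the 3 mESC 1FA and 3 mOPC 1FA libraries together, 31.6% ± 2.18 of member interactions (SD, n = 6) had the DNA tag in the RNA's own gene, against 95.8% ± 2.21 (SD, n = 4) in the NPM libraries. The difference of 64.2 percentage points passed an exact permutation test within lines (two-sided p = 0.01, adjusted p = 0.04 over 12 comparisons of shares). The share beyond 100 kb or on another chromosome was 58.6% ± 1.75 in 1FA and 4.48% ± 2.39 in NPM, a difference of −54.1 points with the same exact p. Within 1 line, an exact permutation test of 3 libraries against 2 cannot go below p = 0.1, which each line's own difference reached. The own-gene difference was 61.1 points in mESC and 67.4 points in mOPC, with no overlap between groups.

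Over all RNAs, mESC had an own-gene share of 31.2% in 1FA and 95.2% in NPM, and mOPC had 34.3% and 94.2%. The share beyond 100 kb over all RNAs was 56.8% and 4.50% in mESC and 59.4% and 5.52% in mOPC. Between the lines in 1FA, the members' own-gene share differed by −2.92 points (exact permutation p = 0.1, the smallest that 3 against 3 allow, adjusted p = 0.109), from 33.0% in mESC to 30.1% in mOPC. That direction rests on Bcas1: with Bcas1 left out the own-gene share was 32.9% ± 1.02 in mESC 1FA and 46.8% ± 2.01 in mOPC 1FA, a difference of 13.9 points the other way (exact p = 0.1).

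The members differed widely among themselves. In mESC 1FA every one of the 47 Mbp interactions and the 8 Bcas1 interactions lay in the own gene. Tcf7l2 placed 30.7%, 31.4% and 32.6% of its interactions in its own gene in the mESC 1FA libraries and 43.1%, 38.6% and 40.4% in the mOPC 1FA libraries, and Myrf placed 25.9%, 29.2% and 27.1% and then 38.1%, 37.8% and 46.3%. For both genes all mOPC libraries lay above all mESC libraries. The same was so for the own-gene share over all RNAs, with means of 31.2% in mESC 1FA and 34.3% in mOPC 1FA. Lying apart in this direction is therefore not particular to these genes. Beyond 100 kb lay 67.7% of Tcf7l2 interactions in mESC 1FA and 59.0% in mOPC 1FA, and 42.4% and 27.5% of those of Myrf. Both RNAs had more listed interactions in mESC 1FA (2497 against 1445 for Tcf7l2, 677 against 274 for Myrf), and the part of that in these shares was not tested. In mOPC 1FA the mean own-gene share over libraries was 26.8% for Bcas1, 35.0% for Sirt2, 62.6% for Cnp, 63.1% for Mbp and 90.6% for Enpp2.

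**Figure D2:**
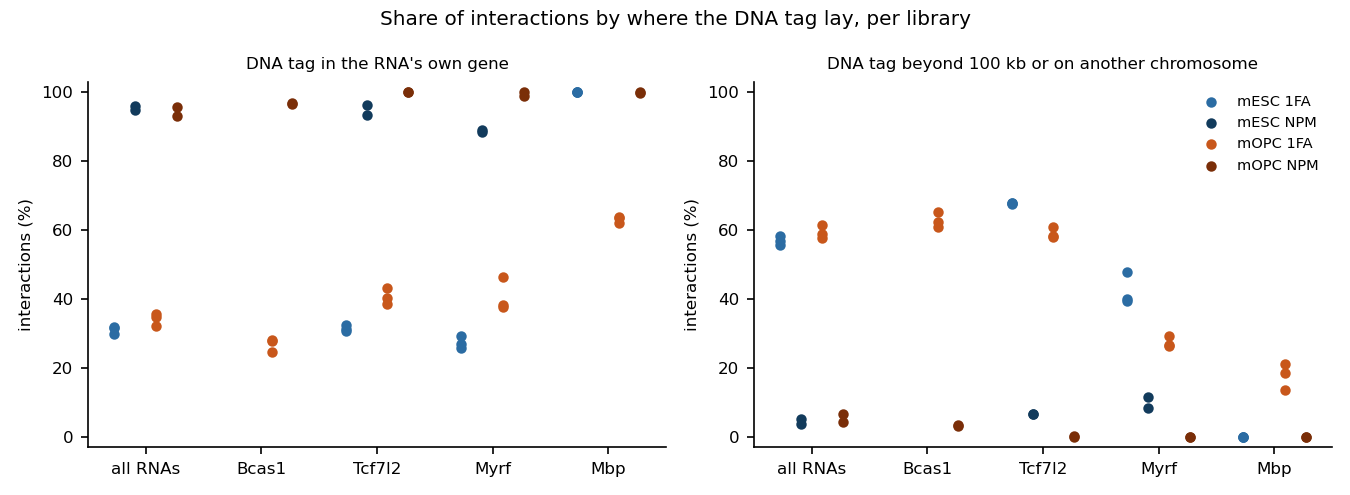
Share of interactions (y axis, percent) whose DNA tag lay in the RNA's own gene (left) or beyond 100 kb or on another chromosome (right), for all RNAs and 4 members (x axis), 1 point per library with at least 10 interactions of that RNA. The NPM libraries lie above 88% on the left and below 12% on the right, and the 1FA libraries of Bcas1, Tcf7l2 and Myrf lie below 47% on the left.

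Bcas1 RNA reached the most bins and also had the most listed interactions, and the part of that number in its reach was not tested. By share beyond 100 kb it did not lead, with 62.9% in mOPC 1FA against 67.7% for Tcf7l2 in mESC 1FA. In mOPC 1FA its 12413 interactions reached 312 bins, of which 298 were on chromosome 2, where Bcas1 lies. Downstream of the gene lay 45.9%, 48.7% and 46.0% of the interactions in the 3 libraries, and upstream lay 24.9%, 25.8% and 25%, so each library had more downstream than upstream. Between 1000 and 2000 kb downstream lay 1427 interactions, and a further 1187 lay more than 2000 kb downstream, the farthest 143860 kb away. On the same scale of distance, 487 and 993 lay upstream, the farthest 11395 kb away. Bcas1 lies near the end of chromosome 2 on its upstream side, so the class beyond 2000 kb covers unequal lengths on the sides. Of the 6156 tags that fell in other annotated genes, 1122 were in the antisense gene Bcas1os2 inside Bcas1, 787 in Tshz2, 493 in Gm26883, 443 in Zfp217 and 304 in Dok5. Tshz2 and Zfp217 encode zinc-finger proteins and Dok5 an adaptor protein.

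On other chromosomes, 141 Bcas1 interactions were listed in mOPC 1FA, with 55, 40 and 46 in the libraries. Of these, 103 were on chromosome 5 in 10 bins, which together held 0.636% of the other-chromosome tags of all RNAs in these libraries. Chromosome 15 held 18, chromosome 17 held 11 and chromosome 19 held 9. The chromosome 5 bins were picked because Bcas1 tags fell in them, and the total was not split by RNA. The share of all RNAs over the whole of chromosome 5 was not taken, so a preference particular to Bcas1 was not tested. The paper reports that the mOPC promoters reached by the most different RNAs lay mainly on this chromosome. In mOPC NPM, 3489 of 3610 Bcas1 interactions lay in the gene and 1 downstream, while 120 lay on other chromosomes, 40 of them on chromosome 5, 31 on chromosome 11, 25 on chromosome 17, 14 on the mitochondrial genome and 10 on chromosome 19. Some of these bins drew many RNAs. The bin chr17:39825001-39850000 held all 11 chromosome 17 tags of Bcas1 in mOPC 1FA and all 25 in mOPC NPM, where it took 1.48% and 5.95% of the other-chromosome tags of all RNAs. It also held all 15 other-chromosome tags of Tcf7l2 and all 10 of Myrf in mESC NPM, where its share over all RNAs was 82.7%.

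Tcf7l2 RNA had fewer listed interactions than Bcas1 RNA and reached fewer bins. In mESC 1FA its DNA tags reached 91 bins and 2391 kb upstream and 1540 kb downstream, and in mOPC 1FA 53 bins, 660 kb upstream and 890 kb downstream. After actinomycin D, 136 of its 169 interactions in mESC were in the gene. Upstream tags outnumbered downstream tags in all 6 of these libraries, with 342, 309 and 325 against 243, 225 and 253 in mESC and 168, 189 and 170 against 103, 132 and 96 in mOPC. The neighbouring gene Vti1a, a SNARE gene of vesicle transport, took 466 of the 990 tags that fell in other genes in mESC 1FA and 328 of 532 in mOPC 1FA. Myrf RNA reached 32 bins in mESC 1FA and 14 in mOPC 1FA, within 451 kb of the gene, and its most frequent other gene was Dagla, a lipid-signalling enzyme gene, with 58 of 317 tags in mESC and 36 of 122 in mOPC. Mbp RNA in mOPC 1FA placed 164 of 520 interactions downstream and 28 upstream, and 88 of the 110 tags in other genes were in Zfp236.

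**Figure D3:**
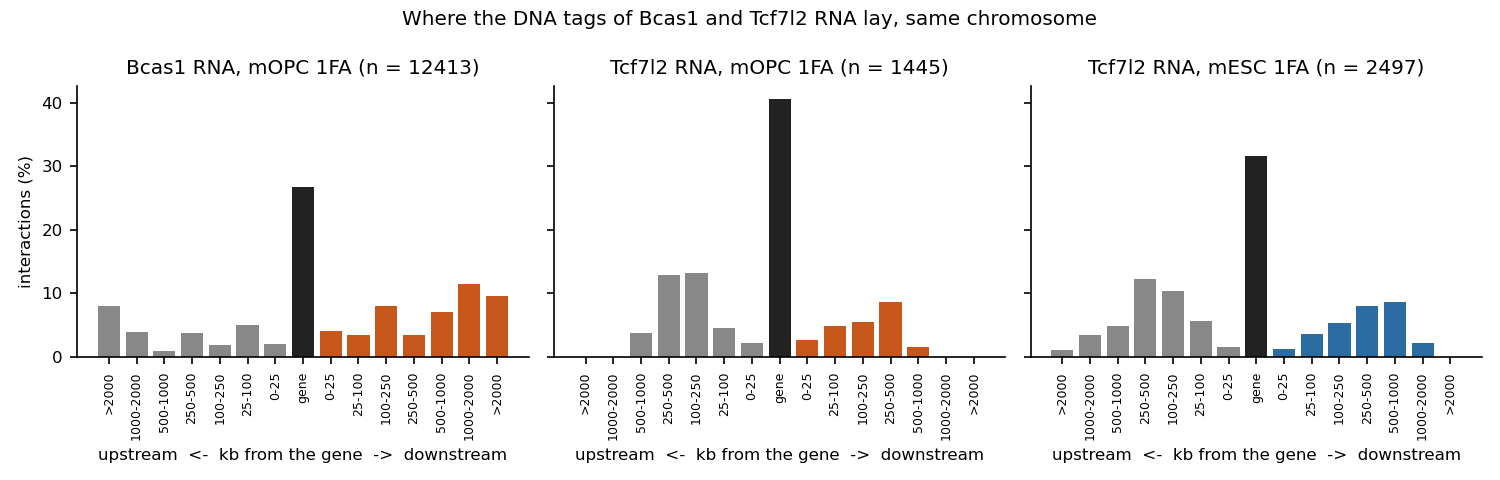
Share of interactions (y axis, percent) in the gene (black) and by distance from it (x axis, kb, unequal distance classes) upstream (grey) and downstream (coloured), for Bcas1 RNA in mOPC 1FA and Tcf7l2 RNA in mOPC 1FA and mESC 1FA, pooled over 3 libraries each. Tags on other chromosomes are counted in the total but not drawn. Bcas1 has 11.5% of its tags 1000 to 2000 kb downstream, and Tcf7l2 in mOPC has none beyond 1000 kb.

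Along the genes, Mbp and Bcas1 RNA tags were not spread evenly. Mbp lies inside a longer transcription unit, known as golli, whose upstream starts are used in other cells, while the classic myelin transcripts start near its 3′ end. In mOPC 1FA, 96.2%, 95.9% and 98.9% of the Mbp RNA tags fell in the last 33.3% of the annotated gene's length, and in mESC 1FA 33.3%, 18.8% and 25% did, of 15 or 16 tags per library. In mOPC NPM the shares were 92.2% and 90.7%. The nearest annotated start before most mOPC 1FA tags was at chr18:82554580, with 16 of the 520 tags before it. Intronic tags made up 372 of the 520 and 129 were in the 3′UTR.

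Bcas1 tags in mOPC 1FA began after an internal annotated start at chr2:170406509, with 15 of 12413 tags before it, and the 74 Enpp2 tags of mOPC NPM and 53 of mOPC 1FA all lay after an internal start at chr15:54919961. For these 3 genes, the stretch before the internal start was nearly empty in mOPC 1FA. Tcf7l2 had 30.1% of tags in the first 20% of the gene's length in mESC 1FA and 29.3% in mOPC 1FA and medians at 42.3% and 42.5% of its length. Mobp tags in mESC 1FA lay towards its start, with 46.0% in the first 20% of its length, and in mESC NPM 65.0% of its 20 tags lay in the last 33.3%.

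**Figure D4:**
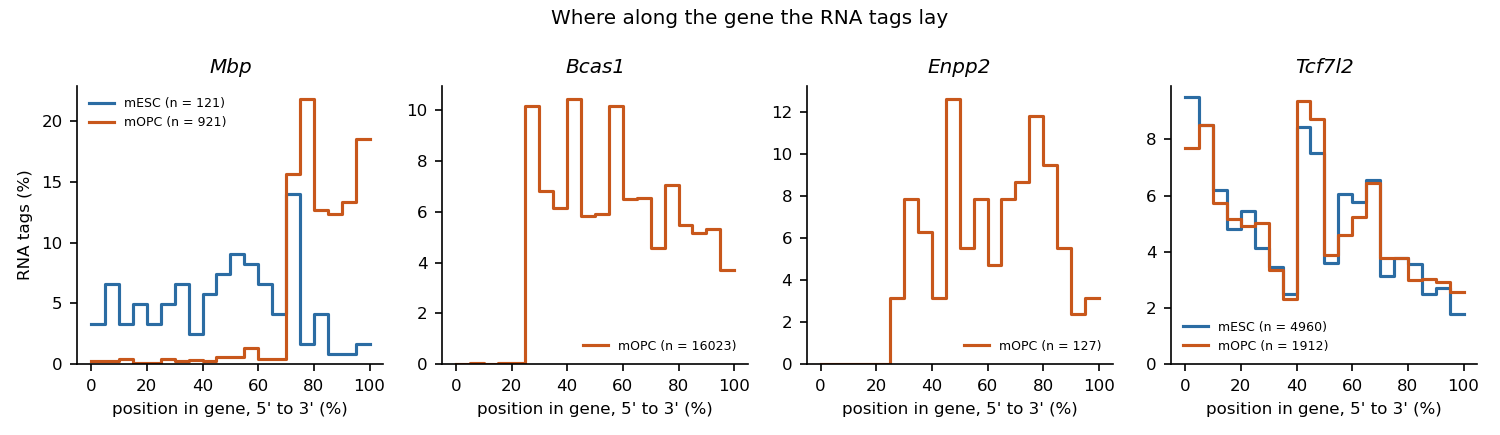
Share of RNA tags (y axis, percent) by position along the annotated gene from its 5′ to its 3′ end (x axis, percent of gene length, in steps of 5), pooled over all mESC libraries (blue) or all mOPC libraries (orange), drawn where at least 50 tags were listed. In mOPC 94.7% of the 921 Mbp tags lie in the last 33.3%, Bcas1 and Enpp2 tags begin past 25% of the gene, and the Tcf7l2 curves of the lines follow each other.

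Most member RNA tags were intronic. The intronic share was 92.4% ± 2.02 in 1FA (SD, n = 6) and 81.1% ± 4.47 in NPM (SD, n = 4), a difference of −11.4 points (exact permutation test within lines, two-sided p = 0.01, adjusted p = 0.04). Over all RNAs it went from 81.2% to 66.4% in mESC and from 77.4% to 67.2% in mOPC. For Myrf it went from 70.9% in 1FA to 44.8% in NPM in mESC, and from 73.4% to 44.4% in mOPC. Tcf7l2 stayed at 97.0% and 94.0% in mESC and 97.3% and 94.7% in mOPC. For Cnp in mOPC the share was 71.8% of 78 tags in 1FA and 49.6% of 115 in NPM, for Mbp it was 71.5% and 72.1%, and for Bcas1 95.6% and 87.1%.

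The members were also examined as DNA targets of other genes' RNAs. In mOPC 1FA relative to mESC 1FA, Bcas1, Tcf7l2, Myrf and Mbp DNA held more tags, Mobp and Sirt2 DNA held fewer, and Cnp and Enpp2 were not called. Bcas1 DNA held 18, 18 and 31 tags in mESC 1FA and 190, 152 and 120 in mOPC 1FA, a log2 fold change of 3.33 (SE 0.22, limma adjusted p = 2.8e-07). Tcf7l2 DNA held 223, 217 and 236, and then 374, 407 and 390 (1.35, SE 0.10, adjusted p = 1.0e-06), so that a gene whose own RNA did not differ by the test drew more RNA of other genes in mOPC. Myrf DNA held 77, 78 and 88 and then 109, 127 and 105 (1.04, SE 0.13, adjusted p = 3.4e-05), while its own RNA was lower. Mbp DNA held 125, 116 and 116 and then 169, 146 and 179 (1.02, SE 0.13, adjusted p = 6.2e-05).

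Mobp DNA held 63, 72 and 64 tags in mESC 1FA and 4, 7 and 9 in mOPC 1FA, a log2 fold change of −2.75 given as a description because it passed the filter only through mESC. Sirt2 DNA held 80, 67 and 78 and then 19, 13 and 18 (−1.60, SE 0.21, limma adjusted p = 7.0e-05), while its own RNA was higher in mOPC. Cnp (0.13, adjusted p = 0.487) and Enpp2 (0.32, adjusted p = 0.144) had overlapping groups. Enpp2 was called without mESC 1FA replicate 3 (0.47, adjusted p = 0.0496). Mag DNA, with 3, 5 and 5 tags in mESC 1FA, mostly from Usf2 and Lsr, and none in mOPC 1FA, was too low to be tested. Of the 8 members tested 4 were called higher and 2 lower, where 66.7% of 18165 genes were called, 31.9% higher and 34.8% lower. The Mobp call, 1 of the 2 lower, was fixed by the filter and supports nothing.

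The share of DNA tags that came from RNA tags within 1 Mb differed by member. In mESC 1FA it ran from 21.5% for Enpp2 to 100% for Bcas1 and Mag. In mOPC 1FA it ran from 6.59% for Enpp2 and 29.4% for Bcas1 to 76.0% for Sirt2. Malat1, an abundant nuclear noncoding RNA of chromosome 19, reached members in both lines. Vti1a supplied 584 of the 676 tags in Tcf7l2 in mESC 1FA and 762 of 1171 in mOPC 1FA, and Dnajc7, which overlaps Cnp, supplied 238 of 393 and 174 of 295 in Cnp. Malat1 supplied 768 of all 3000 member tags in mOPC 1FA over 6 members. It held 25, 15 and 10 tags in Tcf7l2 in mESC 1FA and 103, 77 and 94 in mOPC 1FA. In Bcas1 it held 0 in each mESC 1FA library and 100, 76 and 54 in mOPC 1FA, and in Mbp 0 and then 45, 37 and 38. Summed over the libraries of each group, it held 35 and then 76 tags in Myrf and 17 and then 56 in Cnp. Mobp, with 21 and then 0, and Sirt2, with 17 and then 12, went the other way. In Enpp2 it held 0 in both groups.

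Malat1 itself held 67441, 39879 and 38130 interactions in mESC 1FA and 292296, 258180 and 216210 in mOPC 1FA, so its tags were more numerous in mOPC altogether. With Malat1 tags left out, Bcas1 (2.70), Tcf7l2 (1.42), Myrf (1.26) and Mbp (0.97) were still called higher and Sirt2 (−1.53) lower. Enpp2, not called with them kept, was then called higher (0.67, limma adjusted p = 0.0089). Enpp2 DNA held 0 Malat1 tags in both groups, so only the scaling between libraries changed for it. That change of scaling enters the values of the other members too. Mobp was at −2.25, a description only, as it passed the filter only through mESC. The RNAs in Bcas1 DNA differed in kind between the lines. In mESC 1FA all 67 tags came from Zfp217, a neighbour with 464, 389 and 460 interactions in these libraries. In mOPC 1FA Zfp217 RNA held 9, 2 and 10 interactions and none of them in Bcas1, and the 462 tags came from Malat1 (230), Tshz2 (90), Nfatc2 (48), Neat1 (40) and Dok5 (38), among 7 RNAs.

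In Myrf DNA the most frequent RNA was Gm22973, annotated as a small nuclear RNA gene, with 47 of 243 tags in mESC 1FA, and Fads2, a fatty acid desaturase gene beside Myrf, with 99 of 341 in mOPC 1FA. Gm22973 supplied 151 of all 2373 member tags in mESC 1FA over 5 members. In Sirt2, Actn4 led in both lines, with 74 of 225 and 18 of 50, and in Enpp2 Ext1 led with 111 of 200 and 74 of 167. In Mbp, Zfp236 supplied 104 of 357 and 144 of 494. Without proteins nearly all of this was gone from the list. In mESC NPM the only tags of other RNAs in members were 118 of Dnajc7 in Cnp, and in mOPC NPM all but 1 of 173 came from overlapping genes, with 136 from Dnajc7 in Cnp, 14 from Ppnr in Tcf7l2, and 12 from Bcas1os2 and 10 from Bcas1os1 in Bcas1.

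**Figure D5:**
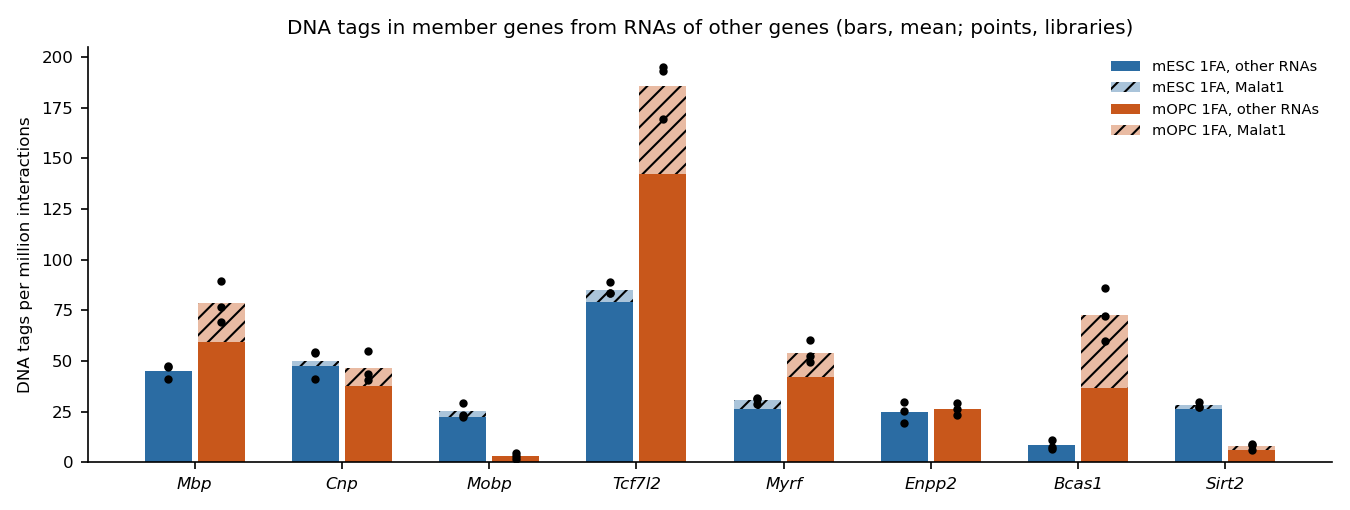
DNA tags in 8 member genes from RNAs of other genes, in CPM (y axis), in mESC 1FA (blue) and mOPC 1FA (orange), by gene (x axis). Bars are means of 3 libraries with the Malat1 part hatched, and points are libraries. Tcf7l2, Bcas1, Myrf and Mbp stand higher in mOPC, Mobp and Sirt2 lower.

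Other genes of the pathway were taken from 2 lists. Of 40 other myelin and oligodendrocyte maturation genes, 19 were tested as RNAs between the lines in 1FA, 14 were called higher in mOPC, of which Ugt8a and Gjc3 were listed at 0 in mESC, and 1 lower. Their log2 fold changes had a median of 3.44, that of Fa2h, against −0.22 over all transcripts. Zeb2, a repressor needed for myelination, held 5887 interactions per library on average in mOPC 1FA and 24 in mESC 1FA (log2 fold change 8.75), Ugt8a, the enzyme that makes the myelin lipid galactosylceramide, held 360 and 0, and the glial connexin gene Gjc3 held 162 and 0. Mog, Mal, Cldn11 and Opalin, genes of mature myelin, were listed at 0 in mOPC 1FA, as Mag and Mobp were. Mog, Mal, Cldn11 and Opalin were picked for that value. Ugt8a, Fa2h, Gjc3, Mbp and Cnp were listed in mOPC 1FA, so not every gene of myelin was at 0 there. These genes were picked as well. Ugt8a and Gjc3, at 0 in mESC 1FA, passed the filter only through mOPC, so their calls support nothing. The gene called lower was Prr5l (−1.58). Between the lines in NPM, 19 of 22 were called higher, 6 of them against mESC libraries listed at 0. The matching shares of all RNAs were 34.4% higher and 43.0% lower in the 1FA comparison, and 30.3% higher in the NPM one.

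Of 25 regulators of Myrf, Tcf7l2 and myelin genes, 17 were tested between the lines in 1FA, of which 8 were called higher and 7 lower, at a median of 0.42, beside the same 77.5% called either way over all transcripts. Among those called higher, Olig2 (0 in mESC 1FA) and Sox10 (0, 4 and 4 interactions there) passed the filter only through mOPC. Their calls support nothing, and the Sox10 fold change rests on those few mESC interactions. Sox10, the transcription factor that activates Myrf, held 357 interactions per library on average in mOPC 1FA and 2.67 in mESC 1FA (log2 fold change 8.02), the chromatin genes Hdac2 and Chd7 held 101 and 38 (2.23) and 1409 and 680 (1.90), Olig2 held 45.7 and 0, and Axin2, a target of Wnt signalling, held 120 and 57.7 (1.89). Ctnnb1, which encodes the partner of Tcf7l2 in Wnt signalling, held 242 and 692 (−0.66). As DNA targets, 17 of 34 tested genes of the first list were called higher and 3 lower, among them Ugt8a (listed at 0 in mESC), Qk (3.14) and Ndrg1 (2.10), and 7 of 20 regulators higher and 6 lower, among them Sox10 (2.01), Mtor (−1.80) and Tle4 (−1.18), where 31.9% of all genes were called higher and 34.8% lower. Between NPM and 1FA, 1 of 14 genes of the first list was called higher and 6 lower in mESC, with Qk at −1.37, Sema4d at −1.25 and Nfasc at −1.09, and 7 of 23 higher and 9 lower in mOPC, with Zeb2 at −1.86, Fyn at −1.78 and Qk at −1.67. Of these calls, Zeb2 (lower in mESC) and Sox8 (higher in mOPC) set a group against one listed at 0 and support nothing. Over all transcripts 21.8% were called higher and 27.7% lower in mESC, and 28.9% higher and 26.6% lower in mOPC.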

How the data were processed

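The deposited files list significant interactions, 1 line each, with positions, annotation and the p-value and adjusted p of the pair. Per the labels and methods, the authors aligned RNA and DNA tags with BWA 0.7.15-r1140 (basecalls by CASAVA 1.8) to mm10, used GENCODE M14 and kept pairs with an adjusted p-value under 0.05 in a one-sided binomial test on 25-kb bins, called on pooled replicates. Replicates therefore share 1 list of pairs, and their spread understates that of separate calls. Per the methods, replicates are batches of cells of different passage numbers. A library sequenced again has 1 deposited file. A condition field inside the deposited NPM files reads Control, while GEO's labels, used here, say NPM, which the study describes as one of its controls. The deposited positions were counted here: an interaction is 1 unique RNA and DNA position pair. Symbols come from GENCODE M21 and promoters from RefSeq.

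Counts were tested with limma 3.58.1 (R 4.3.3, trend) on log2 CPM after TMM scaling (prior count 0.5), for genes with at least 10 interactions in as many libraries as the smaller group and 15 in all, with Benjamini-Hochberg adjustment over all genes. Shares were compared with exact permutation tests (own code with numpy 2.4.6). The fit was tested on simulated data: of 200 genes changed 4-fold, 100% were recovered for the lines in 1FA and 84.5% for the difference in NPM effect. Members, lists and tests were chosen with earlier results of these data known. The text names all members and, of each list, the 3 called genes with the largest change, at least 100 interactions and groups that do not overlap. Olig2, Axin2, Ctnnb1, Prr5l, Ptprz1, Cspg4, Pdgfra and the genes listed at 0 were chosen after their values were seen. Alternatives were scaling by total, no filter, prior count 2, voom weights, each pair counted once, own-gene interactions left out, a joint fit, a replicate block and each library left out. Where that leaves 1 library in a group, the spread comes from the other groups alone. Leaving out Malat1 tags was added after seeing the data. The authors' p-values were not used in any test. Intervals are not given, as depth is not known from these files. A further marker list is not reported here.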

Additional observations from a re-analysis of the deposited data

Results flagged for a closer look

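The term for a difference in the change of Cnp RNA from 1FA to NPM passed its threshold (limma adjusted p = 0.000286), but it rests on mESC NPM libraries listed at 0, which may fall under the listing threshold, so it does not measure a difference. The values were 16, 21 and 41 interactions going to 65 and 50 in mOPC and 12, 20 and 7 going to 0 and 0 in mESC. The change of Sirt2 RNA from 1FA to NPM was smaller in mOPC than in mESC by 1.23 on the log2 scale (difference −1.23, adjusted p = 0.0185), with 38, 30 and 38 going to 47 and 39 in mOPC and 17, 23 and 23 going to 17 and 16 in mESC. Both were noted because the test of the difference between the lines passed its threshold. The mESC NPM libraries held 434610 and 608994 interactions in all, and the part of library size in these values was not tested.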

How the results depend on the processing

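Over all results and alternatives, 268 main values were kept, 19 moved, 3 lost their call and 6 turned. For counts of calls, kept or moved describes only the size of the count. For shares, kept means the same direction and side of the threshold, which comparisons within 1 line or between the lines could not cross. Of the values of single members, 445 kept direction and side of the threshold, 20 gained a call, 20 lost it and 19 turned. The cause was not tested. Without the filter on low counts, calls rose to 9246 of 15793 tested (lines, NPM), 8904 of 14681 (mESC NPM against 1FA), 9060 of 15041 (mOPC NPM against 1FA) and 8048 of 17194 (difference). With each pair counted once, calls were 671 (lines, NPM) and 7937 of 9983 (DNA tags), and members called were 4 of 4 tested (lines, 1FA, where 95.3% of all were called), 2 of 2 (lines, NPM, 99.6% of 674) and 4 of 4 (difference, 93.2%), so these counts lie at the background. Without own-gene interactions, calls were 324 of 412 (lines, NPM, 78.6%) with 1 member of 1 tested, and 2 members of 5 were called for mOPC NPM against 1FA, where 73.0% of all were. Leaving out each library in turn gave 2916 to 4787 calls between the lines in NPM and 2810 to 5972 for mOPC NPM against 1FA, lowest without mOPC NPM replicate 1 in both, with 2 to 3 members called in the latter. Members whose remaining libraries of a group were all at 0 have no value under that alternative.

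The labels and methods do not say whether equal replicate numbers pair the samples. Same-numbered deviations correlated at −0.13 to 0.25 and differently numbered ones at −0.31 to 0.31. With 2 NPM libraries per line the deviations mirror each other, so these values cannot settle it. With a replicate block (matching numbers as pairs, 4 pairs), the differences in shares between NPM and 1FA were 64.6 points (own gene), −54.4 (beyond 100 kb) and −11.3 (intronic), each with an exact p of 0.125, the smallest it allows, and the block brought Enpp2 in mOPC NPM past the threshold (1.17, adjusted p = 0.00926). Between the lines in 1FA, the own-gene difference turned to 11.2 points as a mean of member shares and 13.9 without Bcas1, the share beyond 100 kb to −11.8, −15.8 and, with a limit of 25 kb, −1.03, and the intronic difference without Bcas1 to −3.61.

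Among single members, Tcf7l2 turned between the lines in 1FA to −0.46 (total), −0.0295 (no filter) and −0.0466 (without mOPC 1FA replicate 2, range over libraries left out −0.0466 to 0.128), in NPM to 0.0167 (no filter), 0.24 (pairs once), 0.0918 (without mESC NPM replicate 2, range −0.13 to 0.0918) and 0.06 (without mOPC NPM replicate 1), and in the difference to 0.0467 (total). Myrf turned in mESC to 0.0841 (total) and 0.76 (without own-gene interactions), in mOPC to 0.17 (total) and in the difference to 0.0840 (total) and 0.0707 (without mOPC NPM replicate 2, range −0.49 to 0.0707). Mbp turned in mESC to 0.59 (without mESC NPM replicate 2, range −2.17 to 0.59), in mOPC to −3.23 (without own-gene interactions) and in the difference to −0.46 (pairs once) and −0.45 (without mESC NPM replicate 2, range −0.45 to 2.25). Bcas1 in mOPC turned to 0.0834 (without own-gene interactions) and Cnp DNA to −0.10 (total).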

Other observations

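Of 5204 well-captured transcripts, those whose log2 level followed the mean standardised profile of the 8 members most closely over the 15 libraries were Atrnl1 (Pearson r = 0.976), Tmcc2 (0.966), Trim35 (0.958), Snx25 (0.957) and Eef2k (0.957). The libraries share cell lines and call lists, so these values are a description. Single members followed that profile unequally, from 0.89 for Cnp and 0.83 for Bcas1 to 0.15 for Myrf and −0.75 for Mobp.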
